A study of Arabidopsis thaliana with 11 samples.

Results

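Long sole introns are the only intron of their gene and at least 200 bp long. They were taken from the introns listed for the longest transcript of each gene, by the number of introns of the gene and by the length of the intron from start to end. The tables list 121244 introns of 22121 genes, of which 4419 were sole introns, and 1975 of these were long and 2444 short. No sole intron had its start after its end. The long sole introns had a median length of 404 bp (quartiles 282.5 and 599 bp, longest 4209 bp), whereas the median of all introns was 99 bp. They were spread over the chromosomes, with 500, 351, 392, 262 and 470 on chromosomes 1 to 5. The rule used only length and intron number and no read count.

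All RNA came from 10-day-old seedlings of Arabidopsis thaliana accession Col-0, with no mutant and no treatment of the plants. CB-RNA (2 libraries) was RNA bound to chromatin after a urea wash of the nuclei, with ribosomal RNA removed. RNAe (2 libraries) was chromatin-bound RNA from which both polyadenylated and ribosomal RNA had been removed, which leaves elongating RNA. RNAe + RNAf (2 libraries) was chromatin-bound RNA with only ribosomal RNA removed, listed by the labels apart from CB-RNA with the same description. RNAf (2 libraries) was the polyadenylated RNA of the chromatin, and mRNA (3 libraries) was polyadenylated RNA of the seedlings. Whole seedlings hold many cell types, so each value is an average over them. At each splice site the number of intronic reads was divided by the number of exonic reads beside it, giving a 5ʹSS ratio and a 3ʹSS ratio. A ratio of 0 means that no unspliced reads were seen and a ratio near 1 means as many intronic as exonic reads. Each fraction has 1 pooled set of values, so no spread between libraries can be given.

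An intron is removed by the spliceosome, which recognises the 5ʹ splice site, the branch point and the 3ʹ splice site. Much of this happens while RNA polymerase II is still transcribing, and the rest after the transcript has been cut and polyadenylated. A sole intron has no neighbouring intron, so its flanking exons are at once the first and the last exon of the transcript. Long introns in the 5ʹ untranslated region of plant genes, such as those of polyubiquitin genes, are known for raising expression.

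Of the 1975 long sole introns, 1959 began with GT and ended with AG, 14 were GC-AG and 2 had other ends in the RefSeq copy of the genome (TAIR10.1). The 2 others were those of AT1G54040 (ESP, the epithiospecifier protein), which began with AT and ended with AG, and AT2G16580, which read CT-AC on the strand given, and both were named after their sequence was seen. Over all introns with a sequence, 98.8% were GT-AG and 0.961% were GC-AG. The 5ʹ sites below are shown because they cover the introns whose ratios are described first and the rarer kinds of site. Each run holds 10 exonic and 20 intronic bases, with the first 2 bases of the intron in capitals.
GRP7 5ʹ site, chr2:9265894-9266202 (minus strand): tgattccaagGTctgttacacgccgagatc
HSC70-1 5ʹ site, chr5:555797-556120 (minus strand): accgttttcgGTacgtgtctcgttttctta
UBQ10 5ʹ site, chr4:2718255-2718558 (plus strand): cgtgatcaagGTaaatttctgtgttcctta
EIL1 5ʹ site, chr2:11545993-11546267 (plus strand): actctttcagGCaaacactctttgtctctt
AT5G55530 5ʹ site, chr5:22493525-22494417 (plus strand): ttggatttagGCaagttttcttaagtaatc
AT2G05910 5ʹ site, chr2:2258872-2259160 (minus strand): ccacaaaaagGTatccttttaatttcatcc
AT4G19150 5ʹ site, chr4:10472152-10472519 (minus strand): ctcggactccGTatcctttcttctcgcaaa

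EIL1, an ethylene-signalling transcription factor, and AT5G55530, a calcium-dependent lipid-binding family protein, were the GC-AG members with at least 10 exonic reads at both sites in RNAe. AT2G05910 (a LURP-one-like protein) and AT4G19150 (an ankyrin repeat protein) were the 2 long sole introns with ATCCTT at positions 3 to 8, letters typical of introns of the minor spliceosome. EIL1 had 5ʹSS ratios of 0.282 in RNAe, 0.256 in RNAf and 0.0146 in mRNA, and 3ʹSS ratios of 0.537, 0.735 and 0.128. RNAf was higher than mRNA at both of its sites (Fisher's exact test, adjusted p = 2.06e-17 and 3.47e-65), and RNAe and RNAf were not called different (adjusted p = 0.9 and 0.0727). AT4G19150, whose intron overlaps an exon of a gene on the opposite strand and is retained in an annotated isoform, had 0.739, 0.624 and 0.122 at the 5ʹ site. AT5G55530 had 0.913, 0.258 and 0.0375 there, and RNAe was higher than RNAf at both of its sites (Fisher's exact test, adjusted p = 6.30e-04 and 5.41e-03). AT2G05910 had 0.286 in RNAf and 0.108 in mRNA there and was not called at that site (Fisher's exact test, adjusted p = 0.0686). At its 3ʹ site RNAf was called higher than mRNA, by 0.284 (Fisher's exact test, adjusted p = 3.98e-04). The ATCCTT letters were in 0.101% of the long sole introns against 0.206% of all introns with a sequence, searched on the transcript strand only. The start GTAAG was found in 15.0% of the long sole introns and 17.0% of all introns, and GTATG in 6.38% and 8.07%. The median GC content was 31.5% in the long sole introns, 31.0% in short sole introns and 32.7% in all introns. These shares and medians are a description and were not tested.

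The 3ʹ sites of the 4 polyubiquitin genes among the long sole introns are shown with that of GRP7, because in all 4 the start codon follows the intron directly. Each run holds 20 intronic and 10 exonic bases, with the last 2 bases of the intron in capitals.
UBQ10 3ʹ site, chr4:2718255-2718558 (plus strand): tgagtttttctgattaacAGatgcagatct
UBQ11 3ʹ site, chr4:2588961-2589294 (minus strand): tcggtttttctgattaacAGatgcagatct
UBQ4 3ʹ site, chr5:6974464-6974848 (minus strand): cttgctctcttccttcgcAGatgcaaattt
UBQ3 3ʹ site, chr5:772897-773271 (minus strand): gttctattgttttatttcAGatgcaaatct
GRP7 3ʹ site, chr2:9265894-9266202 (minus strand): ttgtattatttggataacAGatcattaacg
The letters ATG directly after the intron were found in 16 of the 304 long sole introns of the 5ʹ untranslated region (5.26%), in 65 of the 1454 in coding regions (4.47%) and in 6 of the 62 in the 3ʹ untranslated region (9.68%).

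The long sole introns were counted only where their gene was expressed. Reads were counted for 1258 of them in CB-RNA, 1286 in RNAe, 1297 in the RNAe + RNAf preparation, 1292 in RNAf and 1280 in mRNA. In all 5 fractions 1139 were counted, in some fractions 264 and in none 572. The median exonic reads beside the 5ʹ splice site were 42.5 in CB-RNA, 24 in RNAe, 18 in the RNAe + RNAf preparation, 111 in RNAf and 507 in mRNA. Single introns thus had the fewest exonic reads in RNAe + RNAf and the most in mRNA. The precision of a ratio also depends on the intronic reads.

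Many long sole introns were still present in chromatin-bound RNA and few were left in mRNA. The median 5ʹSS ratio was 0.5 in CB-RNA (n = 1235 introns), 0.5 in RNAe (1258), 0.447 in the RNAe + RNAf preparation (1242), 0.244 in RNAf (1285) and 0.0226 in mRNA (1277). The median 3ʹSS ratio was 0.580 in CB-RNA (1248), 0.609 in RNAe (1271), 0.557 in the RNAe + RNAf preparation (1262), 0.326 in RNAf (1287) and 0.0256 in mRNA (1275). Chromatin-bound polyadenylated RNA lay between the elongating RNA and mRNA at both sites. Summed over all long sole introns, where introns with many reads weigh most, the 5ʹSS ratio was 0.491 in RNAe and 0.458 in RNAf, and without GRP7 (AT2G21660) it was 0.482 and 0.366. The introns differed widely among themselves, with quartiles of the 5ʹSS ratio of 0.230 and 0.800 in RNAe, 0.106 and 0.472 in RNAf, and 0.007 and 0.0723 in mRNA. A 5ʹSS ratio above 1 was seen in 10.2% of the introns in RNAe, 3.04% in RNAf and 0.548% in mRNA.

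**Figure D1:**
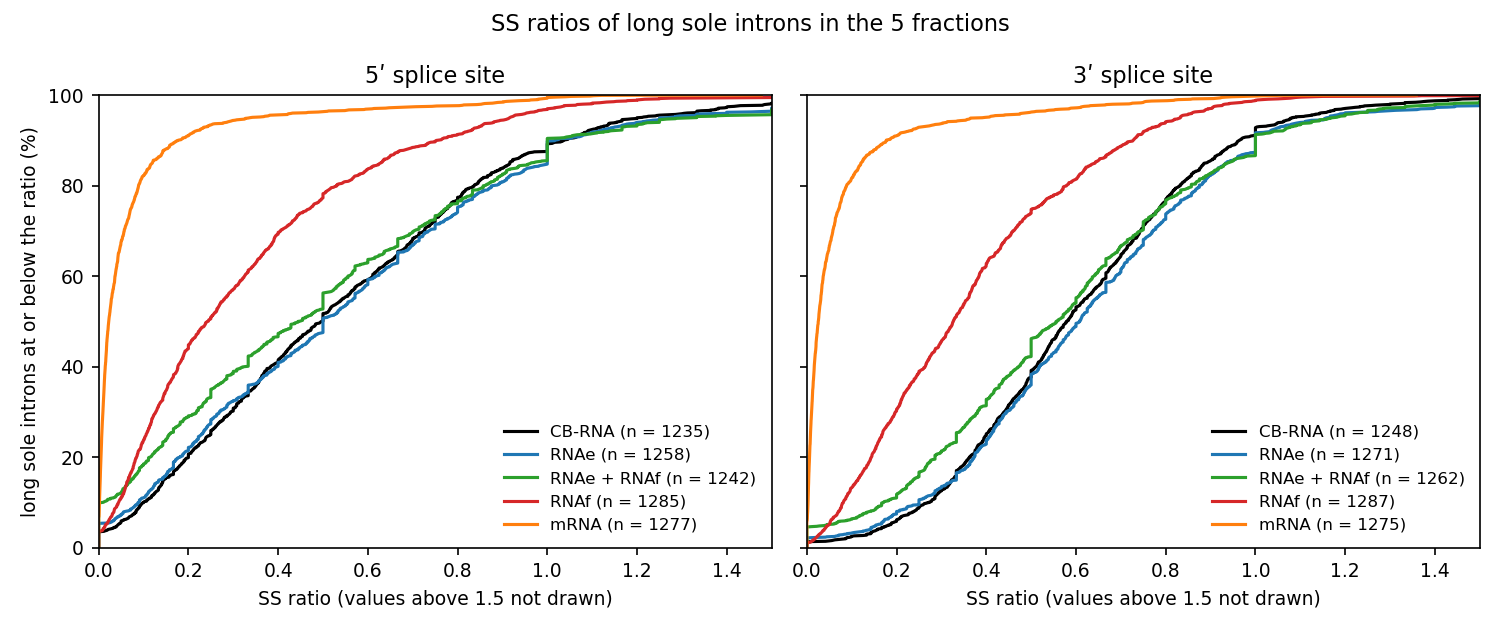
Cumulative share (%) of long sole introns by SS ratio at the 5ʹ (left) and 3ʹ (right) splice site, 1 line per fraction with its number of introns. The 3 fractions that hold elongating RNA run close together, RNAf rises earlier (median 0.244 at the 5ʹ site) and mRNA lies near 0 (median 0.0226).

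The ratios of the long sole introns were set beside those of short sole introns and of the long first and long last introns of genes with 2 or more introns. In RNAe the median 5ʹSS ratio was 0.577 in short sole, 0.297 in long first and 0.507 in long last introns, and 0.308 over all introns. In RNAf the corresponding medians were 0.357, 0.0631, 0.133 and 0.0455, against 0.244 in the long sole introns. The RNAf median of the long sole introns was thus above that of long introns of similar median length (355 bp in long first and 338 bp in long last introns) but below that of short sole introns. At the 3ʹ splice site in RNAf the medians were 0.353 in short sole, 0.105 in long first, 0.168 in long last and 0.0583 in all introns, against 0.326. In mRNA the 5ʹSS medians were 0.0396, 0.0078, 0.0212 and 0.0064. These medians describe pooled libraries and carry no test.

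**Figure D2:**
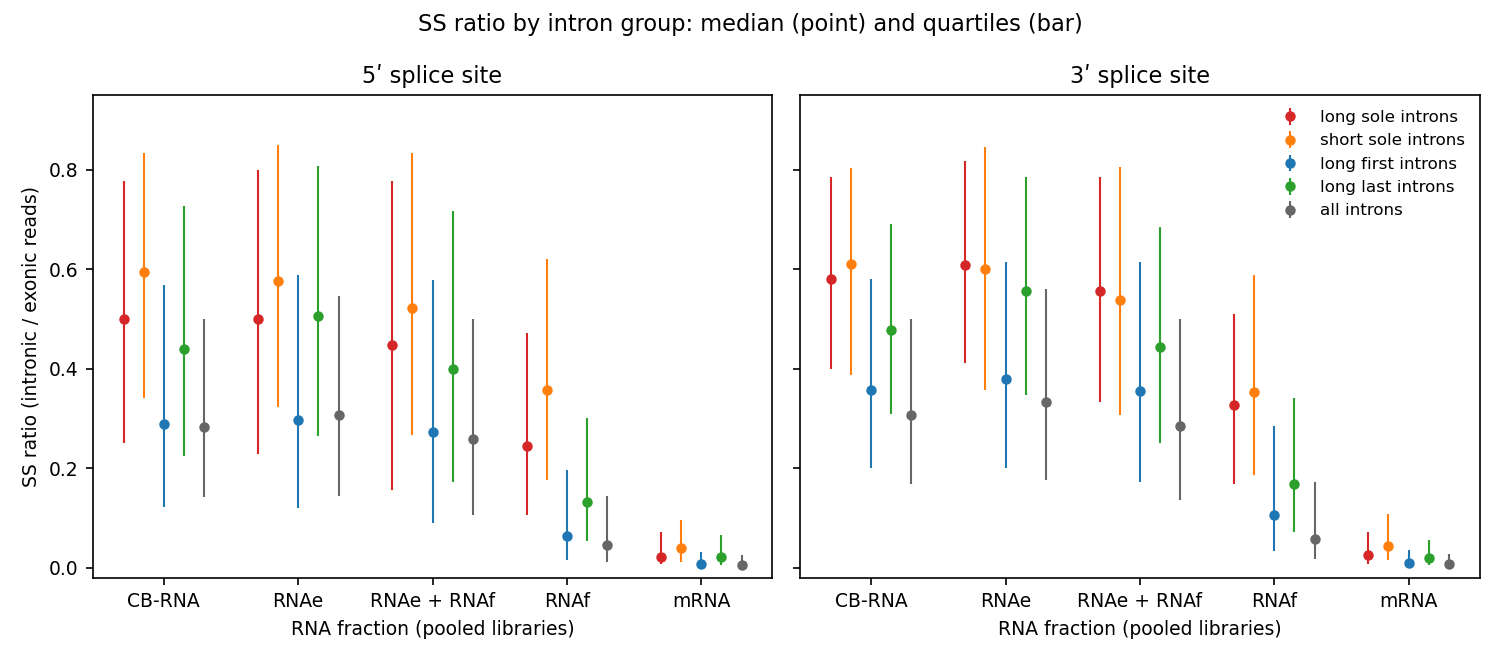
Median SS ratio (points) and quartiles (bars) in the 5 fractions for long sole introns and 4 other sets of introns, at the 5ʹ (left) and 3ʹ (right) splice site. Long and short sole introns lie above the other sets in RNAf, with medians of 0.244 and 0.357 at the 5ʹ site against 0.0631 in long first introns.

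Sole introns from 180 bp to just under the length limit, and those in the first 20 bp from the limit, had median 5ʹSS ratios of 0.474 (68 introns) and 0.5 (65) in RNAe and of 0.280 (72) and 0.321 (63) in RNAf.

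How much unspliced RNA was left after polyadenylation on chromatin was asked with RNAe against RNAf. Of 964 long sole introns with at least 10 exonic reads in both, 385 (39.9%) had a higher 5ʹSS ratio in RNAe and 50 (5.19%) a lower one, against 68.1% and 0.848% of all introns tested. The 3ʹSS ratio was higher in RNAe in 485 of 1038 introns (46.7%) and lower in 8 (0.771%), against 69.5% and 0.427% of all introns. An intron was called where the intronic and exonic reads of a pair of fractions differed with an adjusted p under 0.05 (Fisher's exact test, two-sided, Benjamini-Hochberg adjustment over all introns tested). Since libraries were pooled, such a call rests on counting error and leaves out variation between seedling samples. The share called higher in RNAe lay below the background at both sites, and the share called lower lay above it at the 5ʹ site. Short sole introns were alike in this, with 34.2% higher and 4.16% lower in RNAe at the 5ʹ site. At the 3ʹ site they had 36.25% higher and 1.18% lower. Called higher at both sites were 247 introns, a count for which no share over all introns was computed. The shares moved with read depth. With at least 50 exonic reads in both fractions, 54.6% of 326 long sole introns were higher in RNAe at the 5ʹ site and 9.82% were lower, against 80.6% and 1.21% of all introns tested at that minimum. At the 3ʹ site 63.1% of 404 were higher and 1.24% lower, against 82.2% and 0.598%.

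Within introns with at least 20 exonic reads in both fractions, the RNAf ratio was a median of 0.514 of the RNAe ratio at the 5ʹ splice site (695 introns) and 0.531 at the 3ʹ splice site (815). Over all introns the medians were 0.160 and 0.185. In short sole introns they were 0.632 and 0.626. The RNAf ratio reached or passed the RNAe ratio at 162 of the 695 5ʹ sites (23.3%), against 25.2% in short sole and 6.67% in all introns, and at 118 of the 815 3ʹ sites (14.5%), against 20.1% and 5.48%. Short sole introns thus had shares at least as high. A RNAf ratio above 0.5 was found at the 5ʹ splice site of 231 of 1157 long sole introns (19.97%), against 30.7% of short sole and 5.62% of all introns, and at the 3ʹ splice site of 284 of 1204 (23.6%), against 29.3% and 5.99%. RNAf ratios above 0.2 with mRNA ratios below 0.05 were seen at 295 5ʹ sites (25.5%) and 449 3ʹ sites (37.3%), against 29.0% and 29.4% of short sole and 7.14% and 8.61% of all introns. A ratio above 0.2 in mRNA was seen at 97 5ʹ sites (8.38%), against 13.2% in short sole and 3.62% in all introns, and at 104 3ʹ sites (8.64%), against 13.6% and 4.05%.

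**Figure D3:**
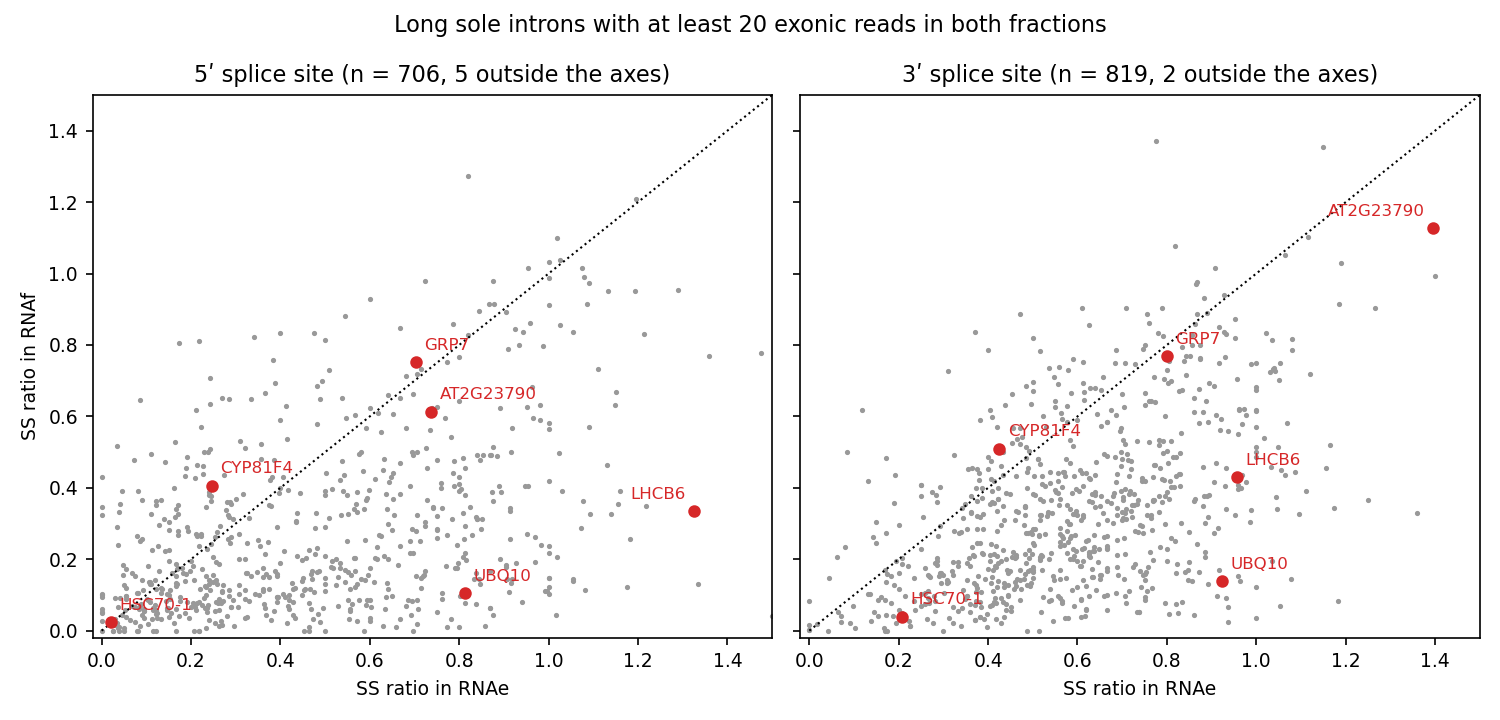
SS ratio in RNAf against RNAe for long sole introns with at least 20 exonic reads in both, at the 5ʹ (left) and 3ʹ (right) splice site; each point is 1 intron, the dotted line marks equal ratios and 6 named introns are in red. With 5 and 2 points outside the axes, most points lie below the line, GRP7 lies near it and UBQ10 lies far below it.

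Polyadenylated RNA on chromatin held more unspliced long sole introns than mRNA. The 5ʹSS ratio was called higher in RNAf at 1003 of 1209 introns (83.0%), against 58% of all introns, and lower at 1 (0.0827%), against 0.47%. At the 3ʹ site RNAf was above mRNA in 1106 of 1229 introns (89.99%), against 63.7%, and below it in 2 (0.163%), against 0.409%. Short sole introns had shares called higher in RNAf of 82.75% at the 5ʹ and 82.96% at the 3ʹ site. Long last introns had 73.5% and 82.2%, and long first introns 59.4% and 70.0%. The 5ʹ share was thus the same in short sole introns. At both sites 956 were higher and 1 was lower, again without a share over all introns. CB-RNA was higher than mRNA at 958 of 1073 5ʹ sites (89.3%), against 91.2% of all introns, and at 1062 of 1125 3ʹ sites (94.4%), against 92.9%, which is near the background. RNAe and RNAe + RNAf differed at few introns: RNAe was higher at 5 of 816 5ʹ sites (0.613%, background 0.853%) and at 5 of 919 3ʹ sites (0.544%, background 0.711%), again near the background. RNAe was lower at 0 of 816 5ʹ sites (background 0.337%) and 2 of 919 3ʹ sites (0.218%, background 0.275%). These few introns are named because their count is small and were picked after their values were seen. GRP-3 (AT2G05520) was called higher in RNAe at both sites, GRP3S, COR15B, MT2A and MDH at the 5ʹ site, and GRP9, AT2G05510, CDF3 and AT5G02870 at the 3ʹ site. RNAe was lower at the 3ʹ site of AT1G67870 (0.0175 against 0.186) and of AT3G18130, a RACK1 scaffold protein (0.0444 against 0.696).

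The order of the long sole introns by their ratio was compared between fractions, over introns with at least 20 exonic reads in both. Spearman's rho between RNAe and RNAe + RNAf was 0.836 for the 5ʹ site (540 introns) and 0.710 for the 3ʹ site (666). Between RNAf and mRNA it was 0.709 (1157) and 0.745 (1204), and between RNAe and RNAf it was 0.418 (706) and 0.490 (819). RNAe and RNAf were the least alike of these 3 pairs at both sites. RNAe and mRNA were less alike still, at 0.395 (704) and 0.449 (812). Over all introns the 5ʹ values of the 3 pairs were 0.765, 0.697 and 0.530 and the 3ʹ values 0.747, 0.714 and 0.597. For RNAe and mRNA the values over all introns were 0.4775 and 0.5205. The points share their genes and their exon and intron sequence, and these values are a description.

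The ratio was lower at the 5ʹ than at the 3ʹ splice site of the same long sole intron on chromatin. The median difference of the 5ʹSS minus the 3ʹSS ratio was -0.101 in CB-RNA (1231 introns), -0.1 in RNAe (1247), -0.1 in the RNAe + RNAf preparation (1221), -0.0414 in RNAf (1280) and -0.0008 in mRNA (1272). In RNAe it was -0.0041 in short sole, -0.0558 in long first and -0.051 in long last introns, and -0.0136 over all introns. Long first and long last introns thus also had lower 5ʹ medians, and the short sole introns had a value near 0. By the test between the 2 sites of the same intron in RNAe, the 3ʹ site was higher at 106 of 909 long sole introns (11.7%), against 3.68% of all introns, and the 5ʹ site at 19 (2.09%), against 1.83%. The 3ʹ site was higher at 11.2% of long first, 8.70% of long last and 2.95% of short sole introns. The 5ʹ site was higher at 4.29%, 3.76% and 1.47% of them. The share with a higher 3ʹ site was thus similar in long first introns. With at least 50 exonic reads at each site the 3ʹ site was higher at 31.8% of 277 long sole introns, against 7.81% of all introns, and the 5ʹ site at 6.14%, against 3.60%. In mRNA the 3ʹ site was higher at 138 of 1263 (10.9%), against 3.49%, and the 5ʹ site at 89 (7.05%), against 2.2%. Long first introns had 9.37% and 6.14% in mRNA, long last introns 5.78% and 7.59%, and short sole introns 4.42% and 1.80%. A read pair may be counted at both sites, so the counts of the 2 sites in this test may not be independent. The 2 sites have different windows of exon. Within introns, exonic reads at the 5ʹ site over those at the 3ʹ site had a median of 0.761 in RNAe, 0.746 in RNAf and 0.973 in mRNA (1 added to each count). The part of the exonic windows and reads in the difference between sites was not tested.

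The length of the first exon moved with the difference. In classes of first exon that begin at 0, 100, 200, 400 and 800 bp, the median difference in CB-RNA was 0.105 (34 introns), 0.0619 (177), -0.126 (338), -0.145 (415) and -0.112 (247). In RNAe it was 0.0107 (32), 0.0133 (183), -0.125 (344), -0.134 (422) and -0.112 (250). It was below 0 only with first exons of at least 200 bp, with no steady trend among those. The 95% intervals of the median in the classes that begin at 0 and 100 bp included 0 in both fractions, in CB-RNA from -0.209 to 0.276 and from -0.0196 to 0.136. The part of the first exon in the whole difference was not tested.

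Length within the long sole introns went with the 5ʹSS ratio in RNAf. In 4 length classes that begin at 200, 300, 500 and 1000 bp, the median 5ʹSS ratio in RNAf was 0.327, 0.259, 0.182 and 0.195. The median 3ʹSS ratio was 0.359, 0.321, 0.297 and 0.366. The longest introns thus had a lower 5ʹ than 3ʹ median in RNAf (74 introns). In RNAe the 5ʹSS medians were 0.5, 0.5, 0.5 and 0.636 and the 3ʹSS medians 0.625, 0.610, 0.592 and 0.593, so the gap between sites that was seen in the shorter classes was not seen in introns of at least 1000 bp. In the same classes of long first introns, the RNAf 5ʹSS medians were 0.0682, 0.0588, 0.0588 and 0.0811 and the 3ʹSS medians 0.0938, 0.0982, 0.123 and 0.190. Spearman's rho of length with the ratio over the long sole introns with at least 10 exonic reads was -0.154 for the RNAf 5ʹ site (1260) and -0.0322 for the RNAf 3ʹ site (1280), and it was 0.105 for the RNAe 5ʹ site (989). Over the same introns, rho of the exonic reads in mRNA with the ratio was -0.236 for both RNAf sites. It was -0.156 for the RNAe 5ʹ site. Length and expression were not separated.

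**Figure D4:**
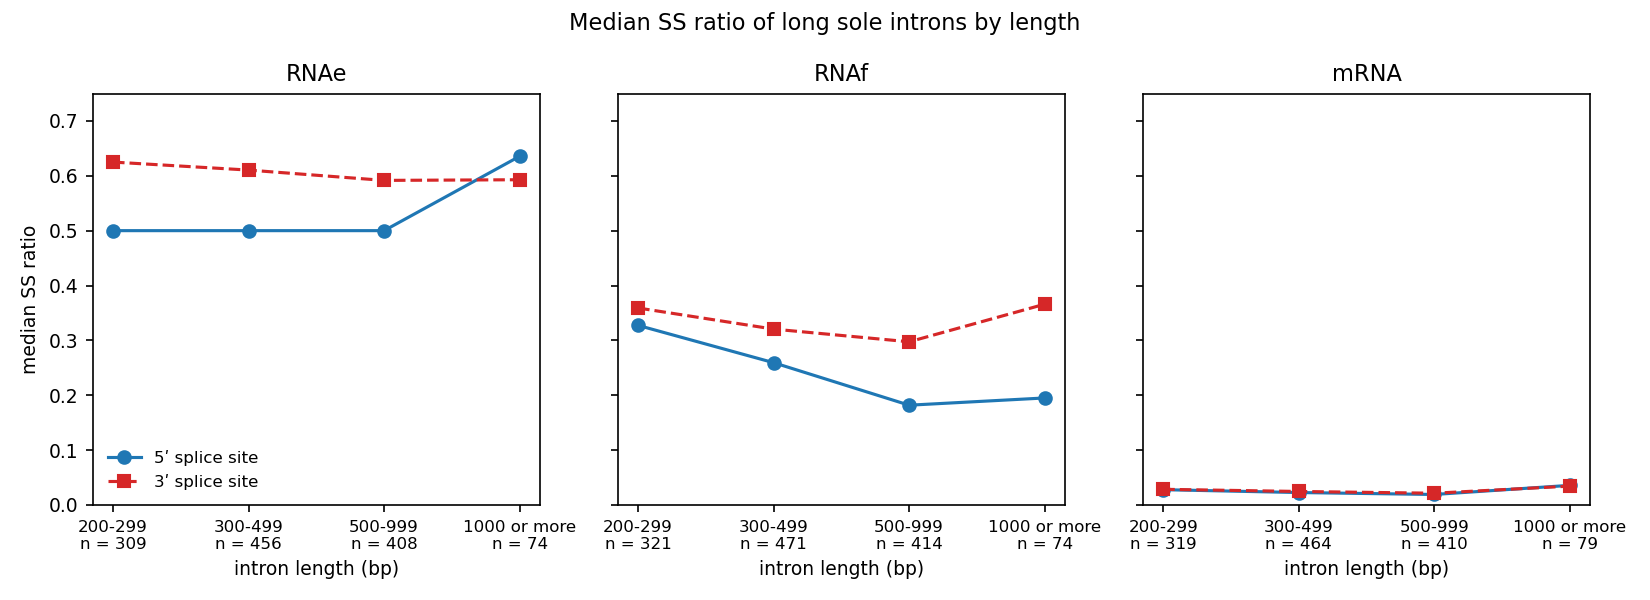
Median 5ʹSS (blue circles) and 3ʹSS (red squares) ratio of long sole introns in 4 length classes in RNAe, RNAf and mRNA, with the number of introns under each class. In RNAf the 5ʹ median lies at 0.327 in the shortest and 0.195 in the longest class, while the 3ʹ median is 0.359 and 0.366.

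Of the 1975 introns, 1917 matched an intron of the same gene in the RefSeq annotation. They lay in the coding region in 1454 cases, in the 5ʹ untranslated region in 304, in the 3ʹ untranslated region in 62 and in transcripts without coding sequence in 97. The 5ʹ untranslated region held 15.4% of the long and 5.52% of the short sole introns. In RNAf the median 5ʹSS ratio was 0.232 in the 5ʹ untranslated region, 0.246 in coding regions and 0.177 in the 3ʹ untranslated region, and the median 3ʹSS ratio was 0.318, 0.327 and 0.294. In RNAe the median 3ʹSS ratio was 0.537, 0.613 and 0.769. The introns without coding sequence had medians in RNAf of 0.391 at the 5ʹ site and 0.590 at the 3ʹ site (27 introns each), and 0.0824 and 0.0998 in mRNA (23 each). At the 3ʹ site RNAf was called higher than mRNA at 244 of 269 introns of the 5ʹ untranslated region, 795 of 868 of coding regions, 46 of 53 of the 3ʹ untranslated region and 14 of 23 without coding sequence. Over all long sole introns the share was 89.99%. The share over all introns tested was 63.7%, and the introns without coding sequence were near it.

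Annotated features of the locus moved with the ratio. The 78 introns that an annotated isoform retains had a median 5ʹSS ratio of 0.063 in mRNA (67 introns) against 0.0211 in the others (1210), and of 0.384 against 0.232 in RNAf. The 154 introns that overlap an exon of a gene on the opposite strand had medians of 0.416 against 0.228 in RNAf and 0.0495 against 0.0214 in mRNA. Whether reads of the opposite strand entered the counts is not stated in the sources used here, and their part was not tested.

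By the words of their product names, 115 introns belonged to zinc finger proteins and transcription factors, 101 to the ubiquitin system, 69 to RNA and translation, 65 to cell wall and sugar enzymes, 62 to kinases and phosphatases, 34 to transporters, 22 to redox proteins and 4 to histones. Unknown proteins made up 408 and other named proteins 1095. The median 3ʹSS ratio in mRNA was 0.0465 in zinc finger proteins and transcription factors, 0.0307 in the ubiquitin system, 0.00855 in RNA and translation and 0.0053 in redox proteins, against 0.0256 over all long sole introns. In RNAf the same classes had medians of 0.384, 0.309, 0.185 and 0.204, against 0.326. RNAf was higher than mRNA at the 3ʹ site of 74 of 84 introns of the first class, 50 of 55 of the ubiquitin system, 59 of 63 of RNA and translation and 19 of 20 of redox proteins. The share there was 63.7% over all introns tested and 89.99% over all long sole introns. These classes were thus near the share of the long sole introns as a whole.

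GRP7 (AT2G21660, chr2:9265894-9266202), a circadian RNA-binding protein known to bind its own transcript, had the most exonic reads of the long sole introns, by its smallest count over sites and fractions. Its intron is 309 bp long and lies in the coding region. Its 5ʹSS ratio was 0.849 in CB-RNA, 0.703 in RNAe, 0.66 in the RNAe + RNAf preparation, 0.752 in RNAf and 0.0573 in mRNA. Its 3ʹSS ratio was 0.849, 0.801, 0.78, 0.768 and 0.0389 in the same order. All 4 chromatin fractions were high and mRNA was low. The Wilson 95% intervals of the 5ʹSS ratio were 0.667 to 0.741 in RNAe and 0.746 to 0.758 in RNAf, and RNAe was called lower than RNAf there (adjusted p = 0.0204, Fisher's exact test) but not at the 3ʹ site (adjusted p = 0.171). GRP7 gave 39.0% of all 5ʹ intronic reads of the long sole introns in RNAf.

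HSC70-1 (AT5G02500, chr5:555797-556120, 324 bp, coding region), a cytosolic chaperone, had lower ratios than GRP7 at both sites in every fraction. Its 5ʹSS ratio was 0.0199 in CB-RNA, 0.022 in RNAe, 0.0107 in the RNAe + RNAf preparation, 0.0234 in RNAf and 0.000596 in mRNA. Its 3ʹSS ratio was 0.179, 0.206, 0.149, 0.0393 and 0.00117. Few intronic reads were seen at its 5ʹ site in any fraction, and the 3ʹ site was higher in RNAe (adjusted p = 2.80e-30, Fisher's exact test). GRP-3 (AT2G05520, a glycine-rich protein) and AT2G41840 (a ribosomal protein of the S5 family) also had lower 5ʹ than 3ʹ ratios in RNAe, at 0.329 and 0.735 and at 0.0292 and 0.187.

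CYP81F4 (AT4G37410, chr4:17591724-17592150, 427 bp, coding region), a cytochrome P450 of indole glucosinolate synthesis, was the only long sole intron called lower in RNAe than in RNAf at both sites. Its 5ʹSS ratio was 0.293 in CB-RNA, 0.247 in RNAe, 0.258 in the RNAe + RNAf preparation, 0.405 in RNAf and 0.0447 in mRNA, with adjusted p = 1.31e-04 for RNAe against RNAf in the exact test. Its 3ʹSS ratio was 0.515, 0.425, 0.366, 0.509 and 0.0501, with adjusted p = 0.0478 (Fisher's exact tests). The intron of the uncharacterised gene AT4G37409 on the opposite strand (chr4:17591695-17592315) spans the whole CYP81F4 intron and was itself among the 3 introns with the largest excess at the 5ʹ site in RNAe (1.59 against 0.894, adjusted p = 4.39e-05, Fisher's exact test). Reads of the 2 genes cannot be told apart where strand was not used. Over the 50 introns lower in RNAe than RNAf at the 5ʹ site, the median ratio was 0.163 in RNAe and 0.467 in RNAf there, and 0.612 and 0.505 at the 3ʹ site. These introns were picked by the same 5ʹ values, so the order of the 5ʹ medians was fixed by the choice.

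TET8 (AT2G23810, chr2:10136174-10136845, 672 bp), a tetraspanin of the plasma membrane and secreted vesicles, was the only long sole intron lower in RNAf than in mRNA at both sites. Its 5ʹSS ratio was 0.257 in CB-RNA, 0.229 in RNAe, 0.313 in the RNAe + RNAf preparation, 0.0908 in RNAf and 0.132 in mRNA (exact test, adjusted p = 1.49e-04 for RNAf against mRNA). Its 3ʹSS ratio was 0.56, 0.436, 0.547, 0.134 and 0.161 (adjusted p = 0.0265, Fisher's exact tests). The Wilson intervals at the 3ʹ site, 0.118 to 0.152 in RNAf and 0.148 to 0.174 in mRNA, overlap. The other intron lower in RNAf at the 3ʹ site, named after its values were seen, was that of AT3G12915 (elongation factor G family, 0.0563 against 0.177). At the other end, PTAC18 (AT2G32180, a plastid protein), AT3G60540 (a subunit of the Sec61 translocon) and AT4G18372 (a small nuclear ribonucleoprotein family protein) had the largest excess of RNAf over mRNA, as the mean over both sites, among introns called at both. All 3 introns lie in the 5ʹ untranslated region behind first exons of 69, 85 and 70 bp, and those of PTAC18 and AT4G18372 overlap an exon of a gene on the opposite strand. The PTAC18 5ʹSS ratio of 3.28 in RNAf rests on 59 intronic and 18 exonic reads, against 0.158 in mRNA (34 and 215).

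The polyubiquitin genes UBQ10, UBQ11, UBQ4 and UBQ3, which encode head-to-tail ubiquitin repeats, each had a long sole intron in the 5ʹ untranslated region. UBQ10 (AT4G05320, 304 bp) had 5ʹSS ratios of 0.551 in CB-RNA, 0.813 in RNAe, 0.772 in the RNAe + RNAf preparation, 0.105 in RNAf and 0.00412 in mRNA. UBQ11 (AT4G05050, 334 bp) had 0.915, 0.984, 0.986, 0.241 and 0.0423. UBQ3 (AT5G03240, 375 bp) had 0.239, 0.147, 0.19, 0.0625 and 0.0038. At the 3ʹ site the RNAe and RNAf ratios were 0.924 and 0.138 in UBQ10, 0.819 and 0.25 in UBQ11, and 0.492 and 0.226 in UBQ3. UBQ3 thus had a low ratio in RNAe at the 5ʹ site only, and its 2 sites differed there (Fisher's exact test, adjusted p = 2.76e-09). RNAe was called higher than RNAf at both sites of all 3 (the largest adjusted p was 5.99e-04, UBQ3 at the 5ʹ site). UBQ4 (AT5G20620, 385 bp) had 0.05 in RNAe on 20 exonic reads and 0.128 in RNAf and was not called at either site (adjusted p = 0.765 and 0.182, Fisher's exact tests). Reads with more than 1 alignment were left out by the study, which bears on exonic reads in ubiquitin repeats, and their part was not tested. The 4 genes of elongation factor 1-alpha have 2 introns each in the tables and are therefore not among the long sole introns, and AT4G02890 is not analysed here.

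**Figure D5:**
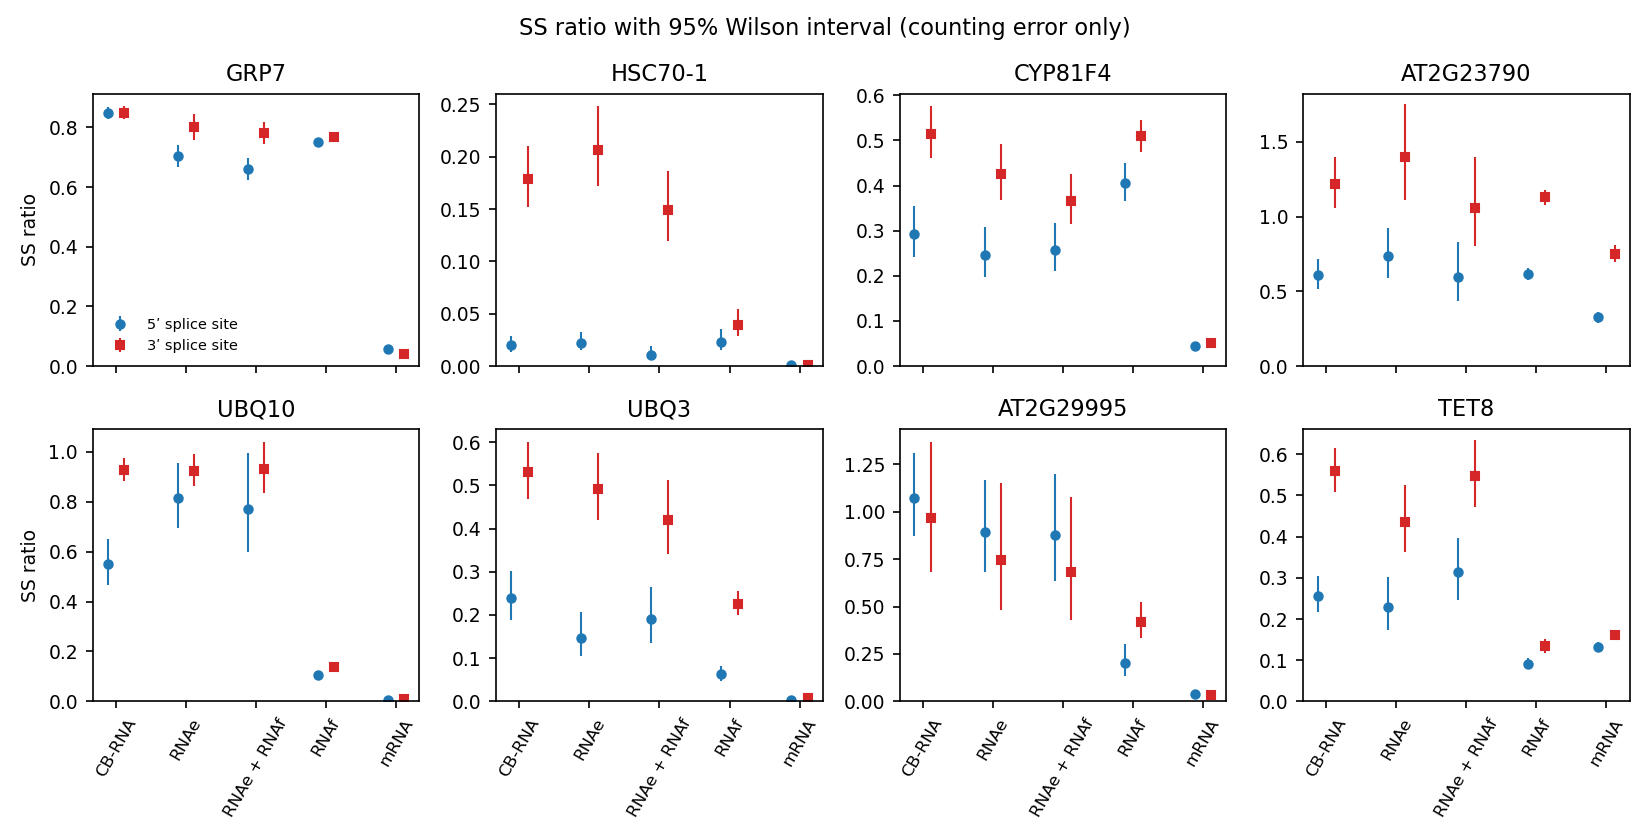
SS ratio of 8 named long sole introns in the 5 fractions at the 5ʹ (blue circles) and 3ʹ (red squares) splice site, with 95% Wilson intervals that cover counting error only; the vertical scale differs between panels. GRP7 stays near 0.75 in RNAf and falls to 0.0573 in mRNA, whereas UBQ10 lies at 0.105 in RNAf and TET8 is lower in RNAf (0.0908) than in mRNA (0.132).

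The highest RNAe ratios, as the mean of both sites, among introns with at least 50 exonic reads at both sites in all fractions were those of UGT85A5 (AT1G22370, a glucosyltransferase), LHCB6 (AT1G15820, an antenna protein of photosystem II), AT2G23790 (a mitochondrial calcium uniporter family protein), AT3G26450 (a polyketide cyclase family protein) and AT4G01700 (a chitinase). The LHCB6 5ʹSS ratio was 1.34 in CB-RNA, 1.33 in RNAe, 0.906 in the RNAe + RNAf preparation, 0.335 in RNAf and 0.011 in mRNA. LHCB6 thus had at least as many intronic as exonic reads at the 5ʹ site in RNAe and few in mRNA, and RNAe was higher than RNAf (Fisher's exact test, adjusted p = 3.95e-72). A gene on the opposite strand overlaps its intron and that of AT3G26450. AT2G23790 had 5ʹSS ratios of 0.609, 0.738, 0.598, 0.613 and 0.325 and 3ʹSS ratios of 1.22, 1.4, 1.06, 1.13 and 0.751. Its RNAf ratio was higher than that in mRNA at both sites (adjusted p = 6.16e-22 at the 5ʹ and 5.74e-18 at the 3ʹ site, Fisher's exact tests), and in mRNA its 5ʹ ratio was lower than its 3ʹ ratio (Fisher's exact test, adjusted p = 8.38e-33). UGT85A5, whose intron an annotated isoform retains, had 3ʹSS ratios of 0.91, 0.989, 0.93, 0.746 and 0.475.

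The lowest RNAe ratios in the same set were those of AT1G67870 (a glycine-rich protein), AT3G13240 (uncharacterised), AT3G59470 (FAR1 family), HOG1 (AT4G13940, S-adenosyl-L-homocysteine hydrolase) and AT5G65220 (a ribosomal L29 family protein). AT3G13240 had 27 intronic on 237 exonic reads at the 5ʹ site in RNAe and 0 on 147 at the 3ʹ site. HOG1 had 5ʹSS ratios of 0.0896, 0.0347, 0.117, 0.0228 and 0.000926 and 3ʹSS ratios of 0.28, 0.153, 0.172, 0.0409 and 0.00147. Its ratios were low at both sites in every fraction.

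Among introns with at least 50 exonic reads at both sites in all 5 fractions, the highest mRNA ratios, as the mean of both sites, were those of the MIR398c precursor (AT5G14565), AT4G26095 (a noncoding RNA), AT2G23790, AT4G12650 (an endomembrane protein) and UGT85A5. MIR398c had 5ʹSS ratios of 0.707, 0.82, 0.783, 1.27 and 0.462 and 3ʹSS ratios of 0.986, 0.931, 0.855, 0.767 and 0.725. A gene on the opposite strand overlaps it. Its intron and that of AT4G12650 matched no annotated intron of the gene. The sites of AT4G12650 disagreed in mRNA, with 2 intronic on 2222 exonic reads at the 5ʹ site and 2019 on 2360 at the 3ʹ site. The intron as listed therefore has almost no reads at 1 end and many at the other in mRNA.

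The longest introns with at least 10 exonic reads everywhere were those of AT5G53110 (2838 bp, a RING/U-box protein), AT2G29995 (1991 bp, a PSY3-like peptide) and AT5G60710 (1782 bp, a RING finger protein). AT2G29995 had 5ʹSS ratios of 1.07 in CB-RNA, 0.892 in RNAe, 0.875 in the RNAe + RNAf preparation, 0.2 in RNAf and 0.0381 in mRNA, and 3ʹSS ratios of 0.969, 0.745, 0.682, 0.42 and 0.0333. The RNAf ratio of AT5G53110 was 0.175 (5ʹ site) and 0.63 (3ʹ site), and that of AT5G60710 was 0.155 and 0.433. In all 3 the RNAf value was lower at the 5ʹ than at the 3ʹ site, a difference that was not tested in RNAf. RNAe was higher than RNAf at the 5ʹ site in all 3 (adjusted p = 0.0449, 1.95e-09 and 5.44e-04, Fisher's exact tests) but at the 3ʹ site only in AT2G29995 (adjusted p = 0.0377), with adjusted p = 0.921 and 0.867 in the other 2.

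Among introns called between the sites in RNAe, the largest differences were in AT4G12600, AT4G37409 and TIM13 (AT1G61570), with higher 5ʹ ratios, and in TOM6 (AT1G49410), AT5G10130 and AT4G14905, with higher 3ʹ ratios. TIM13 and TOM6 encode parts of the import machinery of the inner and outer mitochondrial membrane. AT4G12600, a ribosomal protein L7Ae family protein, had ratios in RNAe of 1.23 at the 5ʹ site on 13 exonic reads and 0.132 at the 3ʹ site on 91 (adjusted p = 1.92e-04, Fisher's exact test). In mRNA it had 6 exonic reads at the 5ʹ site and 4113 at the 3ʹ site, so the exon listed before the intron was hardly present there. AT5G10130, a pollen Ole e 1 family protein, had 0.11 on 73 exonic reads and 1.2 on 15 in RNAe (adjusted p = 7.24e-05, Fisher's exact test). These differences rest on few reads at 1 of the sites.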

How the data were processed

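The deposited tables of the authors give, for each intron, exonic and intronic read counts beside both splice sites and their ratio. Per the labels and the methods, reads were trimmed with Trimmomatic 0.39, mapped to TAIR10 with HISAT2 2.2.0 and handled with SAMtools 1.3.1, reads with more than 1 alignment were excluded and expressed genes were kept by FPKM from StringTie. The width of the read windows, the use of strand and the joining of replicates are not given in the sources used here. Each deposited table holds 1 pooled set of values per fraction. The deposited ratios lay within 5e-05 of intronic over exonic reads.

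Ratios with at least 1 exonic read entered the medians. Fisher's exact tests were two-sided, for introns with at least 10 exonic reads on both sides of the comparison, with Benjamini-Hochberg adjustment over all introns and a threshold of 0.05, and were tested on simulated data. Wilson intervals of 95% were turned into ratios. Positions came from the RefSeq annotation (TAIR10.1), which matched 97.1% of the long sole introns, and sequences from its genome, which shares its coordinates with the tables. Introns were named by rule: most reads, longest, highest and lowest ratios in RNAe, highest in mRNA, largest differences between RNAf and mRNA and between sites in RNAe, and ubiquitin and elongation factor 1-alpha genes. The rare splice sites, the introns behind counts of 5 or fewer and the mention of CYP81F4 (also among those with most reads) as the intron lower in RNAe at both sites were picked after their values were seen. The members and lists were chosen with earlier results of these data known. Tables were handled with pandas 2.3.3 and numpy 2.4.6 in Python 3.11.15, tests run with scipy 1.17.1 and numba 0.67.0, and figures drawn with matplotlib 3.10.9. Alternatives were other read minimums, length limits, summaries and call thresholds.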

Additional observations from a re-analysis of the deposited data

How the results depend on the processing

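No paired analysis was possible because each fraction has 1 pooled set of values and no column per replicate, and for the same reason no fit without a replicate was run. Of the alternative values for 83 results, 242 stayed within the interval of the reported median or within 1.5 times of the reported count, 54 moved and 3 changed sign. Among the 54 were 5 ratios of summed intronic reads between the 2 sites. Those 5 were compared with a difference by direction only, so no interval applied to them. The interval of a median came from binomial order statistics.

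Exonic reads. With at least 10, the RNAe 5ʹSS median was 0.484, and the RNAe 3ʹSS difference of long minus short sole introns turned to -0.0029. With at least 50, the 5ʹSS medians were 0.438 in CB-RNA, 0.403 in RNAe and 0.279 in RNAe + RNAf, and the 3ʹSS medians 0.570 in RNAe and 0.513 in RNAe + RNAf. With fewer introns tested, the calls then were 178 and 255 for RNAe above RNAf (5ʹ and 3ʹ site), 32 and 5 for RNAe below RNAf, and 510 and 648 for CB-RNA above mRNA. Their shares rose, to 54.6% and 63.1%, 9.82% and 1.24%, and 92.6% and 96.9%. Over all introns tested the shares were 80.6% and 82.2%, 1.21% and 0.598%, and 95.2% and 96.35%.

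Summary. Summed reads gave 5ʹSS values of 0.522 in CB-RNA, 0.491 in RNAe, 0.458 in RNAf and 0.0270 in mRNA and 3ʹSS values of 0.660, 0.669, 0.610, 0.466 and 0.0299 in the order CB-RNA to mRNA. Without GRP7 (AT2G21660), an alternative chosen after seeing the data, the 5ʹSS values were 0.482 in RNAe, 0.366 in RNAf and 0.0268 in mRNA and the 3ʹSS values 0.648, 0.665, 0.601, 0.406 and 0.0298. Means of ratios up to 1 were 0.454, 0.465, 0.299 and 0.0742 at the 5ʹ site (CB-RNA, RNAe, RNAf, mRNA) and 0.569, 0.517, 0.356 and 0.0763 at the 3ʹ site (RNAe, RNAe + RNAf, RNAf, mRNA). Summed intronic reads at the 5ʹ over the 3ʹ site were 0.637, 0.577, 0.553, 0.811 and 0.866 in the order CB-RNA to mRNA. With a first exon of at least 200 bp, also chosen after seeing the data, the RNAe difference between sites was -0.124.

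Length. From 300 bp, the RNAf 5ʹSS median was 0.212, RNAe minus RNAf 0.300 and RNAf minus mRNA 0.190. Long sole minus long last introns in RNAe at the 5ʹ site turned to 0.0158 with a limit of 150 bp and was -0.0519 with 300 bp, and 0.0193 at the 3ʹ site with 300 bp. In RNAf, with 300 bp, long sole introns were 0.152 above long first introns at the 5ʹ site and 0.0673 and 0.130 above long last introns at the 5ʹ and 3ʹ site. In mRNA the 5ʹSS difference from long last introns turned to -0.00185 with 300 bp.

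Calls. With an adjusted p under 0.01, RNAe was below RNAf at 33 5ʹ sites (3.42%, against 0.489% of all introns tested) and 5 3ʹ sites (0.482%, against 0.209%). The 5ʹ site was then higher in RNAe at 12 introns (1.32%, against 1.13%), which is near the background. With an adjusted p under 0.05 and at least a 2-fold difference, RNAe was below RNAf at 5 3ʹ sites (0.482%, against 0.263%). The cause of these shifts was not tested.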
